A study of Mus musculus with 16 samples.

Results

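Broad H3K9me3 peaks were chosen by width alone, as every H3K9me3 peak of at least 10 kb in the table of peaks deposited for small intestinal crypts. Of 212313 peaks, 1636 (0.771%) were this wide. They covered 24.0 of the 413.9 Mb under all peaks, or 5.79% of the bases. Calling was done once per mark, with the ChIP reads of both genotypes joined, so reads of KO as well as WT libraries helped to decide how wide a peak became, and a region raised in KO could reach 10 kb through its KO reads.

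Chromatin immunoprecipitation with sequencing (ChIP-seq) was carried out on whole crypt isolates of C57BL/6 mice, which were male according to the methods of the study. The WT group was labelled as wild type and the KO group as a Vil-Cre mediated deletion of Smarcad1, a SWI/SNF-like chromatin remodeler. Each group had 3 H3K9me3 ChIP libraries, 3 H3K9me2 ChIP libraries and 1 input (sonicated chromatin without antibody) per mark. In the KO mice, Cre was expressed from a transgenic Villin (Vil1) promoter that is active in the intestinal epithelium and removed floxed exons of Smarcad1, and the floxed line came from a single targeted ES cell clone. Cells of a crypt isolate that do not use this promoter, such as stroma or immune cells, would keep the gene. The sources used here give no age for these libraries and do not state whether WT mice carried the Cre transgene or which mouse each library came from. The study calls the libraries biological replicates. The p-values and SEs reflect the spread between the libraries of a given peak only in part. The fits drew the variance of each feature toward a trend over all features of that mark.

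H3K9me3 marks constitutive heterochromatin. It is written by SETDB1 and the SUV39H enzymes and read by HP1 proteins, and readers recruit further writers, so that the mark can spread along a chromosome into domains many kb long. In mouse tissues such domains are known over repeat-rich DNA, over clusters of KRAB zinc finger genes, where the mark extends over the exons that code for the zinc fingers, and over silent gene clusters such as odorant receptors. H3K9me2, written mainly by G9a and GLP, usually forms still larger and shallower domains.

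Sequence from the GRCm38 genome shows what kinds of DNA these domains held. The 4 windows below are the centre of the widest broad peak, of the broad peak with the smallest p among those lower in KO, of the one with the smallest p among those higher in KO, and of the broad peak over Fat1, the last of which was chosen after its values were seen. All are plus strand, and capitals mark CpG dinucleotides, the target of DNA methylation. The first lies in an intron of Sfi1 at chr11:3163381-3163620, the second outside any gene at chr16:21044881-21045120, the third just upstream of Vil1 at chr1:74408431-74408670 and the fourth across a coding exon edge of Fat1 at chr8:45036481-45036720. They hold 1, 4, 9 and 4 CpGs.
Widest, Pisd-ps1/Sfi1: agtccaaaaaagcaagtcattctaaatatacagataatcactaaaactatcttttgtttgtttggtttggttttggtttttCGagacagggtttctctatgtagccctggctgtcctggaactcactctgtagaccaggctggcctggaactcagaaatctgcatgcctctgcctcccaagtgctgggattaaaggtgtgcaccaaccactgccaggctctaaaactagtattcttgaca
Lower in KO, chromosome 16: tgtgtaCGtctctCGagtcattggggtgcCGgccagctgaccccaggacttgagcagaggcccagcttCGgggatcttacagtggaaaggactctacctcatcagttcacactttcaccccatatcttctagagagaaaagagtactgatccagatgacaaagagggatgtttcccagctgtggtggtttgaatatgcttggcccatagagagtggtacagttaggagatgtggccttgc
Higher in KO, Vil1: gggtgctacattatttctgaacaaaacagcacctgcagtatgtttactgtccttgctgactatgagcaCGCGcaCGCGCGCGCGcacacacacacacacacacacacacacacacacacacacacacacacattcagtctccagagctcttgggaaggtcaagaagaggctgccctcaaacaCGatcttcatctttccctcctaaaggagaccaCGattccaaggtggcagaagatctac
Higher in KO, Fat1: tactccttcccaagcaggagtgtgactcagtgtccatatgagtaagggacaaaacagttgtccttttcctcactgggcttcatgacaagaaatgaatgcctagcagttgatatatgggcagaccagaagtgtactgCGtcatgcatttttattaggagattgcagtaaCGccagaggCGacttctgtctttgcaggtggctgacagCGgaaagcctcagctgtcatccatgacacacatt

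A second pair of windows shows a feature with a higher frequency in broad peaks than in narrow ones, the coding sequence of C2H2 zinc fingers. Consecutive fingers are joined by a conserved linker peptide, TGEKPY, and capitals mark its codons. Both windows are on the minus strand and lie inside a coding exon, the first of Zfp445 at chr9:122852667-122852966 and the second of Zfp111 at chr7:24199252-24199551. The Zfp445 window came from the zinc finger gene of smallest p with a coding match, and the Zfp111 window, chosen after its values were seen, holds 2 linkers.
Zfp445: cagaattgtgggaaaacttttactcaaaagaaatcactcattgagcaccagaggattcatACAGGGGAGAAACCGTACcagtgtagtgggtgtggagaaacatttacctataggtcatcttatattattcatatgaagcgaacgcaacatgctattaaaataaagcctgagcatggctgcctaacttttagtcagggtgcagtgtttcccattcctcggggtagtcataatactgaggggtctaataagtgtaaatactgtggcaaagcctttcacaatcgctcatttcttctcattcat
Zfp111: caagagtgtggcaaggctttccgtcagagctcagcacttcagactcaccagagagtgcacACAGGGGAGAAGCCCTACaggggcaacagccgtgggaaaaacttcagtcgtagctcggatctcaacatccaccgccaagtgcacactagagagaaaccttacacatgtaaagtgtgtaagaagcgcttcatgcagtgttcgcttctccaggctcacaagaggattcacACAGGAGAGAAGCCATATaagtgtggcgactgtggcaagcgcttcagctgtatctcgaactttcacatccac

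The linker codons, searched on both strands in any codon usage, occurred in 141 of the 1636 broad peaks (8.62%), and in 411 of all 212313 peaks (0.194%). Per Mb of peak there were 48.3 matches in broad peaks and 3.62 in peaks under 10 kb, a difference that holds per base. The share of peaks with a match was 0.907% at 5 to 10 kb, 6.13% at 10 to 20 kb and 26.4% at 20 kb or more. Broad peaks held 45.1% of all matches found under H3K9me3 peaks.

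Broad peaks ranged from 10050 to 73500 bp, with a median of 12300 bp against 1350 bp for all peaks, and 201 reached 20 kb. Widths came in steps of 150 bp, and 76 peaks had the smallest width that passed (10050 bp) while 79 had the largest that did not (9900 bp). The first 3 peaks of each kind along chromosome 1 had similar levels: 2.01 to 2.42 reads per kb per 1000000 reads in peaks (hereafter density) in the 6 ChIP libraries just inside the limit, and 1.86 to 2.38 just outside. Between 216 and 375 reads fell in the median broad peak of a ChIP library, compared with 23 to 38 in the median peak overall. The depth in peaks was 7050933 to 11845274 reads per ChIP library and 8838386 (WT) and 8452186 (KO) reads in the inputs. WT libraries differed more among themselves than KO libraries did, with a chi-square per degree of freedom over the broad peaks of 4.50 to 8.61 between WT pairs and 2.04 to 2.62 between KO pairs. WT replicate 3 stood apart at several gained loci, so calls are also given without it.

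The level over input, log2 of ChIP over the input of the same genotype, was close to that of the average peak in most broad peaks. ChIP and input were each scaled to their own reads in peaks, which sets the ratio of the average peak near 0. Above or under input therefore means above or under that average in all that follows, and says nothing of absolute enrichment. Since peaks were called as ChIP over input, these levels are a description. The median broad peak stood at 0.12 ± 0.03 in WT and 0.10 ± 0.03 in KO (SD, n = 3), against -0.06 ± 0.01 and -0.02 ± 0.03 over all peaks. Peaks of 20 kb or more reached 0.41 ± 0.11 in WT and 0.26 ± 0.06 in KO. Of the 1636, 857 were above input in all 3 WT libraries, and 92 were at least 2-fold above it in all 3.

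The 5 widest broad peaks, 1 per gene, differed greatly in input reads. The widest, 73500 bp, lay over Pisd-ps1 and part of Sfi1 (chr11:3126751-3200250). It held an estimated 34846 to 64001 ChIP reads but also 42726 and 47209 input reads. From these estimates the log2 level over input was 0.16 in WT. This peak had the highest value in each of the 6 ChIP libraries, so matching the distributions made its deposited values equal. No change could therefore be seen in it, and its ChIP reads per library were extrapolated from lower peaks rather than measured. The next were over Tiam1 (72450 bp), Arl15 (65100 bp) and CT033774.3 (57900 bp), and in a stretch without a gene at chr4:152815201-152872800 (57600 bp). Of these 5, Arl15 was called higher and CT033774.3 lower in KO. The call at CT033774.3 was lost without WT replicate 3 (limma adjusted p 0.0837) and without KO replicate 2 (0.162).

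In KO, 48 broad peaks were lower and 45 higher at an adjusted p under 0.05 (limma, Benjamini-Hochberg over all peaks). The lower calls were 2.93% of the broad peaks, close to the 2.46% of all 212313 peaks called lower. The higher calls were 2.75%, while 0.252% of all peaks were called higher. Calls in the higher direction therefore made up 48.4% of the calls in broad peaks and 9.30% over all peaks. The share called higher was 0.110% under 1 kb, 0.661% at 5 to 10 kb, 2.44% at 10 to 20 kb and 4.98% at 20 kb or more. Wider peaks also held more reads, and a region raised in KO could reach a wider class through its KO reads. The part of either in this gradient was not tested. The shares count peaks and not loci, and 26 of the 45 higher broad peaks came from 3 loci.

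**Figure D1:**
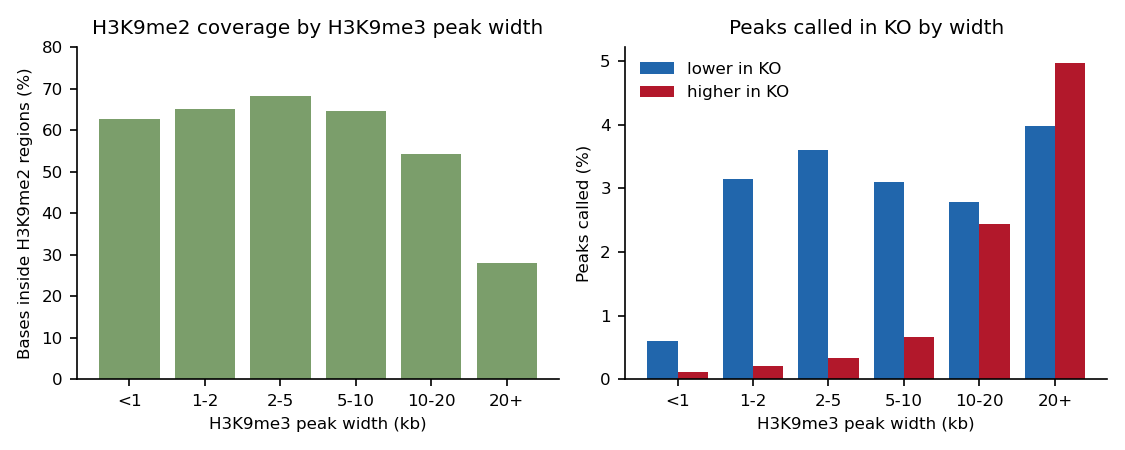
H3K9me3 peaks in 6 classes of width (kb, x axes). Left bars give the percent of bases inside H3K9me2 regions, which falls to 27.9% in peaks of 20 kb or more. Right bars give the percent of peaks called lower (blue) and higher (red) in KO, and the red bars reach 4.98% in the widest class.

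With DESeq2 on recovered reads, 36 broad peaks were lower (2.20%, against 1.06% of all peaks) and 10 higher (0.611%, against 0.0579%), all 10 of them among the 45. The higher direction then made up 21.7% of the calls in broad peaks. Without the trend of variance on level, limma called 0 lower (against 0.041% of all peaks) and 1 higher (0.00754% of all peaks). The 1 higher call was Vil1 (adjusted p 4.98e-06), where the input density was 2.48 in WT and 28.8 in KO. No broad peak other than Vil1 was called by limma without the trend. At an unadjusted p under 0.05 that fit had 27 lower (1.65%, against 6.34%) and 31 higher (1.90%, against 3.6%), so under it broad peaks passed less often than peaks in general. With the trend, 106 broad peaks (6.48%, against 6.75% of all peaks) were lower and 216 (13.2%, against 4.07%) higher at an unadjusted p under 0.05. On recovered reads this balance turned, with 130 lower and 78 higher in edgeR with TMM scaling and 113 and 38 in DESeq2. With library totals edgeR had 117 and 115. The excess of higher peaks at this threshold thus depended on the fit. All 3 KO values lay above all 3 WT values in 312 broad peaks (19.1%, against 7.3% of all peaks) and below them in 125 (7.64%, against 8.21%). The median log2 fold change was 0.066 in broad peaks and 0.028 over all peaks.

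The lower and higher broad peaks started from different levels and ended at similar ones. The 48 lower peaks stood at a median of 1.11 ± 0.04 over input in WT and 0.44 ± 0.12 in KO (log2, SD, n = 3). The 45 higher peaks stood at -0.07 ± 0.35 in WT and 0.41 ± 0.11 in KO. In WT, 45 of the 48 lower but 5 of the 45 higher peaks were above input in all 3 libraries, and in KO 37 and 40 were. The calls used the same reads, so these levels describe the called peaks and test nothing. The plot of KO against WT levels over input shows this separation.

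**Figure D2:**
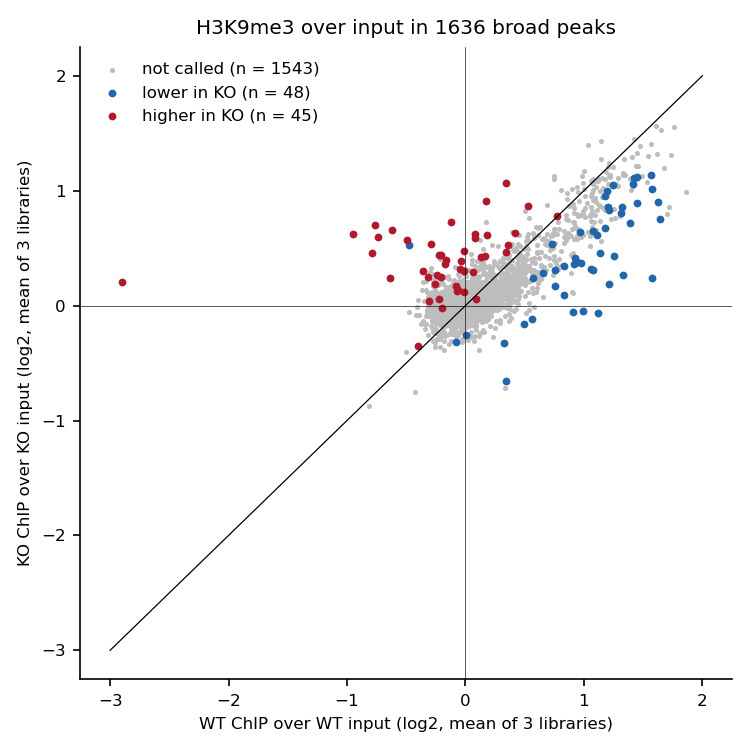
Each point is 1 of 1636 broad peaks, with log2 ChIP over input in WT (x axis) and KO (y axis), each the mean of 3 libraries. The line marks equal levels. Most peaks lower in KO (blue, n = 48) lie to the right and below the line, and most peaks higher in KO (red, n = 45) lie further left and above it, with Vil1 at the far left (-2.90). The blue point above the line is chr11:3099751-3113100, where the WT input was high.

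Zinc finger genes carried 13 of the 48 lower broad peaks. Their products, mostly of the KRAB type, bind transposons and other targets and recruit SETDB1. Zinc finger genes named 73 broad peaks (4.46% of the broad peaks, against 0.434% of all peaks), and 13 of these were lower (17.8%, against 2.93% of all broad peaks and 2.46% of all peaks) and 0 higher, with 22 and 6 at an unadjusted p under 0.05. Their median log2 fold change was -0.047, against 0.066 over all broad peaks. The zinc finger peaks also held more reads, with a median of 820 in WT against 350 over all broad peaks. The part of reads or level in their share of lower calls was not tested. Some of the 13 lie in the same run of peaks, as at Zfp180 and Zfp111, and are not independent. At 0.96 ± 0.04 over input in WT and 0.79 ± 0.08 in KO (log2, SD, n = 3) they stood above the other gene classes drawn, and 52 of the 73 held a linker match. Peaks under 10 kb at such genes stood at 0.11 ± 0.03 in WT, with 50 lower (5.90%) and 3 higher (0.354%) of 848.

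Zfp180 (ENSMUSG00000057101) gave the lowest p of this class. Its broad peak at chr7:24088351-24098550 had a density of 3.31, 3.01 and 3.49 in WT and 1.29, 1.80 and 1.68 in KO, with inputs at 2.57 and 2.49. On this scale all KO libraries were under input and all WT libraries over it, and the log2 fold change was -1.03 (SE 0.10, adjusted p 5.09e-10). The adjoining 12750 bp broad peak of the same gene, which holds 8 linker matches, fell by less, with a log2 fold change of -0.45 (adjusted p 7e-06).

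Zfp445, known for keeping imprints in mouse and human, showed the same order of libraries. The density at chr9:122851801-122862900 was 5.71, 5.52 and 6.26 in WT and 2.33, 3.76 and 3.05 in KO, and the inputs were at 2.67 and 3.13. The KO libraries lay around their input and the WT libraries far above theirs (log2 fold change -0.93, SE 0.09, adjusted p 6.16e-10). The window printed above comes from this peak.

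Zfp780b and Zfp111, from neighbouring parts of chromosome 7, fell too. Zfp780b (chr7:27958651-27971250) had densities of 4.21, 4.34 and 4.33 in WT and 2.16, 2.87 and 2.59 in KO, a log2 fold change of -0.74 (SE 0.08, adjusted p 1.19e-08). Zfp111 (chr7:24191101-24204000) had 7.78, 6.46 and 7.19 in WT and 3.67, 5.06 and 4.63 in KO, a log2 fold change of -0.65 (SE 0.08, adjusted p 2.27e-08). Unlike Zfp780b, Zfp111 stayed above its input (2.61) in all KO libraries. The other lower zinc finger peaks were at Zfp850, Zfp110, Zfp810, Zfp709, Zfp763, Zfp68, Zfp942 and Zfp160, with log2 fold changes from -0.40 to -0.23. Zinc finger genes are a family of similar sequence, and reads kept at a minimum mapping quality can still be shared between close copies.

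The strongest loss in p lay outside any gene. At chr16:21035101-21054900 the density was 6.27, 6.01 and 6.64 in WT and 2.46, 3.16 and 2.94 in KO, against inputs of 2.50 and 2.37. The groups did not overlap, and the log2 fold change was -1.11 (SE 0.07, adjusted p 1.88e-16). This was the broad peak with the lowest log2 fold change of all, and 3 of the 48 lower peaks fell by at least 2-fold. The others of the 3 were Zfp180 and chr11:3099751-3113100, and the latter rested on WT replicate 1.

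Of the 48 lower broad peaks, 12 had no gene within 5 kb and 10 were named for predicted genes. These were 1.49% of the 807 broad peaks without a gene and 4.50% of the 222 at predicted genes, against 2.93% of all broad peaks. Of those without a gene, chr11:20409601-20421300 fell by 0.66 on the log2 scale, chr17:46343851-46358100 by 0.64 and chr3:87596551-87608700 by 0.53. The predicted gene Gm15834 (chr1:58505551-58517100) had densities of 5.96, 5.56 and 5.81 in WT and 3.41, 3.87 and 3.84 in KO (log2 fold change -0.60, adjusted p 8.03e-08). Cfap53, a cilium and flagellum gene, had 5.42, 5.02 and 5.74 in WT and 3.44, 3.66 and 3.32 in KO (log2 fold change -0.59, adjusted p 6.18e-08).

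1 lower call rested on a single library. At chr11:3099751-3113100, beside the widest peak, WT replicate 1 had a density of 40.4, but WT replicates 2 and 3 had 6.79 and 7.57 and KO libraries 5.10, 7.01 and 6.37. The WT input (17.7) was also above the KO input (4.23). Its log2 fold change of -1.02 (adjusted p 0.00699) therefore came with KO values that overlapped those of WT.

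**Figure D3:**
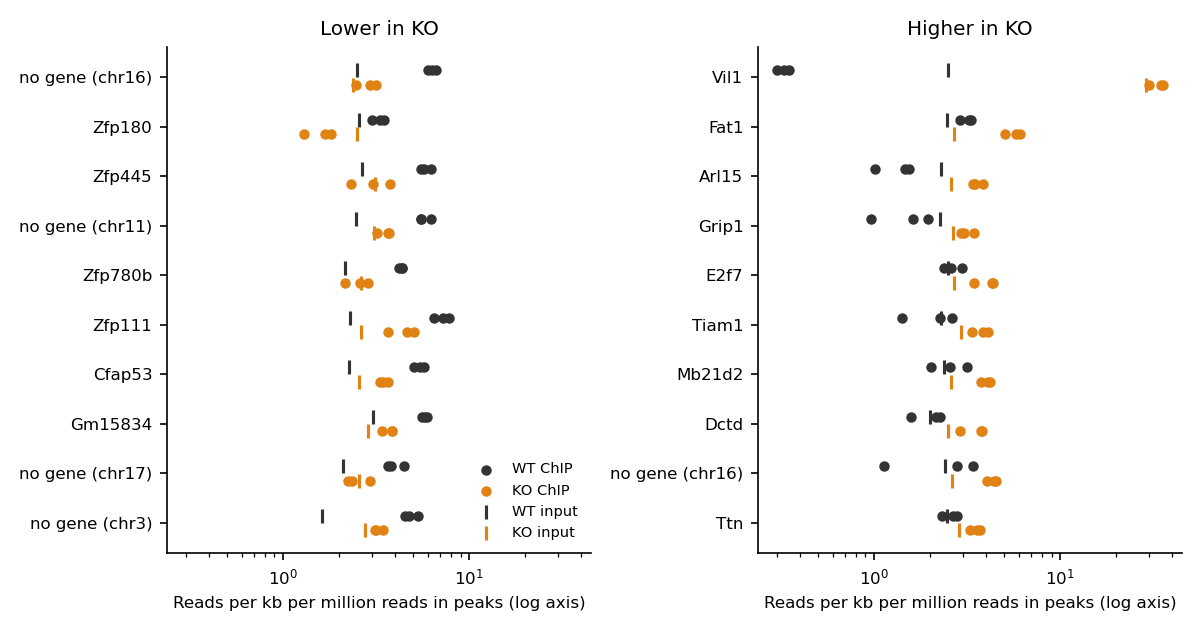
Density (reads per kb per 1000000 reads in peaks, log axis) in the 10 lower (left) and 10 higher (right) broad peaks of smallest p with separate groups, 1 per gene. Points are the 3 WT (dark) and 3 KO (orange) ChIP libraries, and ticks are the inputs. At Vil1 the KO input moves with the KO ChIP, and at Arl15, Grip1 and Tiam1 the spread in WT exceeds that in KO.

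The higher broad peaks fell into few loci. The 45 peaks lay in 20 groups separated by more than 100 kb, while the 48 lower ones lay in 44. 26 of the 45 came from 3 loci, with 7 at Arl15, 11 at Grip1 and 8 in and beside Tiam1. Peaks of 1 locus are not independent of each other. 40 of the 45 overlapped a gene (88.9%, against 44.5% of all broad peaks), and none was at a zinc finger gene by name. A transcription start lay in 7 (15.6%, against 15.5% of all broad peaks). The higher peak at 6720489N17Rik (log2 fold change 0.31, adjusted p 0.0263) nevertheless held 5 linker matches.

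Arl15, an ARF-like GTPase, carried gains along most of its length. All 7 broad peaks of the gene were higher, as were 48 of its 50 peaks of any width. The smallest p was at chr13:114116851-114132750, where the density was 1.47, 1.53 and 1.02 in WT and 3.48, 3.83 and 3.40 in KO, against inputs of 2.28 and 2.59. On the same scale WT was below its input and KO above, and the log2 fold change was 1.47 (SE 0.10, adjusted p 1.97e-15). The widest of them, 65100 bp, had 3.97, 3.10 and 1.52 in WT and 4.87, 5.33 and 4.82 in KO (log2 fold change 0.96, adjusted p 4.99e-07). This log2 fold change was 0.57 without WT replicate 3. DESeq2 gave 0.79 and did not call the peak (adjusted p 0.843).

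Grip1 encodes a PDZ scaffold that binds glutamate receptors, and 11 of its 14 broad peaks were higher, with 64 of all its 93 peaks. At chr10:119792551-119803800 the density was 1.95, 1.63 and 0.966 in WT and 2.92, 3.45 and 3.06 in KO (log2 fold change 1.13, SE 0.12, adjusted p 7.85e-09). Across the 14 broad peaks the log2 fold change ranged from 0.22 to 1.13. 7 of them touched no exon.

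Tiam1, a guanine nucleotide exchange factor for Rac, was uneven. 5 of its 7 broad peaks were higher, and 3 more in the same run of peaks had no gene in the deposited annotation. At chr16:89846101-89858400 the density was 2.63, 2.26 and 1.41 in WT and 3.34, 4.10 and 3.84 in KO (log2 fold change 0.92, adjusted p 6.91e-08). DESeq2 gave this peak a log2 fold change of 0.83 and did not call it (adjusted p 0.139). The 72450 bp broad peak at chr16:89879101-89951550 had 5.76, 4.66 and 3.65 in WT and 4.04, 4.05 and 4.69 in KO, so the groups overlapped (log2 fold change -0.07, adjusted p 0.827). The widest domain of the gene was thus not called while stretches on either side were, and the difference between these peaks was not tested. Among the peaks without a listed gene, that at chr16:90071401-90100350, had 3.42, 2.80 and 1.13 in WT and 4.04, 4.53 and 4.40 in KO (log2 fold change 1.01, adjusted p 6.95e-06). Its log2 fold change was 0.54 without WT replicate 3. DESeq2 gave 0.80 and did not call it (adjusted p 1). Tiam1 and Fat1 are in a list of genes with gained H3K9me3 taken from the study, which chose them on these samples, so the 6 higher calls among its 8 broad peaks are not independent evidence. A second list, of genes named as upregulated in the study text, had 7 broad peaks, all at Tiam1. The study also names Tiam1 as a gene with more H3K9me3 in its body and decreased expression.

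WT replicate 3 had low values at most of these gains. It was the lowest of the WT libraries in 39 of the 45 higher broad peaks, in 25 of the 26 at the 3 loci, and in 404 of all 1636 (24.7%). Its median distance from the other WT libraries was -0.78 at Grip1, -1.21 at Arl15 and -0.76 at Tiam1 on the log2 scale, and 0.02 over all broad peaks. Without WT replicate 3, 31 broad peaks were higher (1.90%, against 0.166% of all peaks), 30 of them shared with the full set. In the same fit 35 were lower (2.14%, against 1.69% of all peaks), 33 of them shared. Arl15 kept 7 higher peaks, while Tiam1 had 4 and Grip1 5 of 14. The median log2 fold change was then 1.04 at Arl15, 0.30 at Grip1 (0.61 with all libraries) and 0.33 at Tiam1 (0.50 with all libraries).

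**Figure D4:**
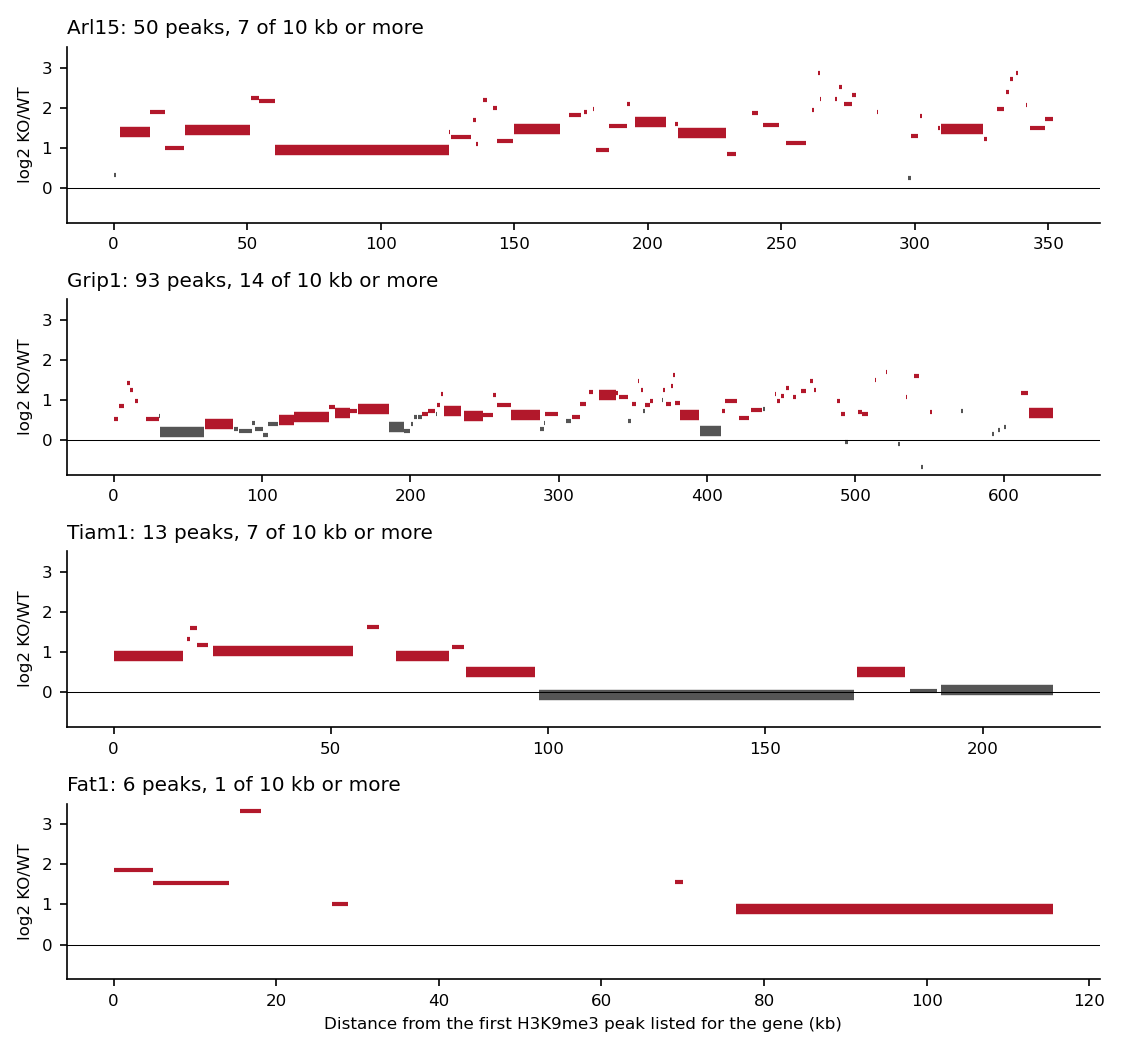
log2 fold change of KO over WT (y axes) for every H3K9me3 peak listed for Arl15, Grip1, Tiam1 and Fat1, drawn to scale along the distance (kb) from the first peak of the gene. Thick bars are broad peaks, thin bars narrower ones, red is higher in KO and grey not called. Arl15 has 48 of 50 peaks in red and Fat1 6 of 6, while the widest bar of Tiam1 lies at -0.07.

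Fat1 was much the same without that library. This giant atypical cadherin carried 1 broad peak of 39000 bp at chr8:45017101-45056100, where the density was 3.32, 3.22 and 2.91 in WT and 5.03, 6.05 and 5.79 in KO, with inputs at 2.48 and 2.68. The log2 fold change was 0.88 (SE 0.06, adjusted p 1.82e-15), and 0.84 without WT replicate 3. The peak held 14559 bp of exon, and all 6 peaks of the gene were higher.

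Broad peaks also rose at E2f7, an atypical E2F repressor of the cell cycle, at Mb21d2, at Dctd, the dCMP deaminase, and at Ttn, which encodes titin. E2f7 had densities of 2.96, 2.60 and 2.38 in WT and 3.44, 4.32 and 4.38 in KO (log2 fold change 0.65, adjusted p 2.76e-08). Mb21d2 had 3.15, 2.55 and 2.01 in WT and 3.75, 4.22 and 4.08 in KO for the peak of smaller p of 2, a log2 fold change of 0.71 (adjusted p 7.28e-08). DESeq2 gave 0.63 and did not call that peak (adjusted p 0.0784). The WT libraries of Mb21d2 were spread more widely than its KO libraries, and WT replicate 3 was again the lowest. Dctd (chr8:48135001-48145200) rose by 0.83 on the log2 scale (adjusted p 1.38e-07) and Ttn (chr2:76730101-76751550) by 0.50 (adjusted p 1.17e-05). The remaining higher peaks were at Dapk1, Camkmt, Kcnt2, St6galnac3, Spock1, Arhgap28, 6720489N17Rik, Csmd2 and Lama1 and outside genes, with log2 fold changes of 0.26 to 0.57.

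Vil1 gave the largest difference, and its input differed as well. The broad peak at chr1:74401801-74415300, which covers the start of Vil1 and the DNA upstream, had densities of 0.327, 0.350 and 0.303 in WT and 35.5, 30.0 and 34.7 in KO (log2 fold change 6.69, SE 0.08, adjusted p 6.78e-48). The inputs stood at 2.48 in WT and 28.8 in KO, a ratio of 11.6 (exact binomial 95% interval 10.3 to 13.1, counting error only). Relative to input, KO was at 0.21 and WT at -2.90 (log2). The Cre transgene of the KO mice carries Villin promoter DNA, and its copies cannot be told apart here from the endogenous gene. Vil1 was the only one of 32 crypt epithelial markers overlapped by a broad peak, and none of 20 markers of other cell types and none of 24 genes of the H3K9 methylation machinery was.

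Of the 122 broad peaks at least 2-fold over WT input on average, 27 were lower and 0 higher. These peaks were picked on WT reads that also enter the test, which by itself favours lower calls over higher ones, so nothing is read from that count. The 5 highest, 1 per gene, were not called. The highest, 1.86 in WT and 0.99 in KO (log2), lay at chr17:17028151-17058450. The deposited annotation names it Chd1, but GENCODE M21 places Chd1 elsewhere on that chromosome and has no gene there. Its density was 5.37, 4.89 and 13.2 in WT and 7.12, 5.09 and 4.92 in KO, so WT replicate 3 stood far above the other WT libraries (log2 fold change -0.27, adjusted p 0.571). All 6 broad peaks under that name had a log2 fold change below 0, from -0.29 to -0.09, and none was called. For 81 of the 728 broad peaks listed as overlapping a gene, GENCODE M21 did not have that symbol in the span.

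The next best enriched were at Gm3055 (1.76), Zfp182 on X (1.73), Gm20388 (1.72) and Gm5997 (1.67). Gm3055 held 13 linker matches and Zfp182 held 6. None of the 4 was called, with log2 fold changes from -0.20 to -0.11 and adjusted p of 0.176 to 0.806.

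Other gene groups were small, so that few calls could fall in them at the 2.93% lower and 2.75% higher of all broad peaks. By listed gene name, 28 broad peaks were at vomeronasal receptor genes, 18 at olfactory receptor genes and 10 at germline multicopy families. Another 4 were at immune V segments, 4 at imprinted genes (Airn, Peg3 and Usp29), 2 at Sult2a4 among metabolising enzymes and 1 in the Pcdha cluster. All of these had 0 calls in either direction, and solute carrier genes had no broad peak. By gene span rather than name, broad peaks overlapped 26 of 57 clustered protocadherin genes. At an unadjusted p under 0.05 (limma), 2 vomeronasal, 2 olfactory, 1 germline and 1 imprinted peak were lower, and 1 vomeronasal, 1 olfactory and 1 imprinted peak were higher. The vomeronasal peak nearest to a call, Vmn2r12, had densities of 3.70, 3.68 and 3.79 in WT and 3.02, 2.94 and 3.19 in KO (log2 fold change -0.25, adjusted p 0.0632). Airn, the RNA that silences the Igf2r locus on the paternal allele, stood at 4.31, 4.23 and 4.12 in WT and 3.12, 4.03 and 3.75 in KO (log2 fold change -0.18, adjusted p 0.305). In both, all KO values lay under all WT values without passing the test. Predicted genes named 222 broad peaks, with 10 lower (4.50%) and 0 higher. At an unadjusted p under 0.05 in limma with the trend, 21 were lower and 19 higher, where all 1636 broad peaks had 106 and 216 in that fit.

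**Figure D5:**
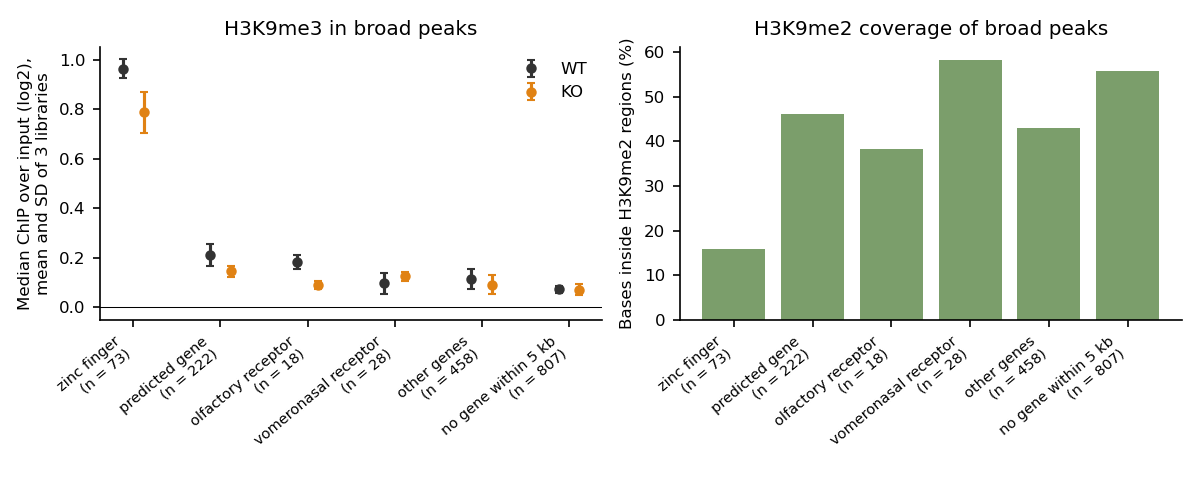
Broad peaks by gene class (x axes, number of peaks below each name). Left points are the median log2 ChIP over input, mean and SD of 3 WT or 3 KO libraries. Right bars are the percent of bases inside H3K9me2 regions. Among the classes drawn, zinc finger peaks have the highest H3K9me3 (0.96 in WT) and the lowest H3K9me2 coverage (15.8%).

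Broad peaks overlapped H3K9me2 regions often but not deeply. 1360 of the 1636 (83.1%) touched one, against 68.2% of all peaks, which a wider peak does more often by its width. By bases the order turned, with 47.8% of broad peak bases and 66.1% of the bases of narrower peaks inside H3K9me2 regions. Coverage was 54.2% at 10 to 20 kb and 27.9% at 20 kb or more. 420 broad peaks lay wholly inside H3K9me2 regions and 276 (16.9%) outside them.

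Called broad peaks lay outside H3K9me2 more often than the rest. No H3K9me2 region touched 34 of the 48 lower (70.8%) and 25 of the 45 higher (55.6%) peaks, compared with 14.1% of those not called. Of the 45 higher peaks, 26 came from 3 loci (Arl15, Grip1 and Tiam1), so their share does not count independent sites. Zinc finger peaks had 15.8% of their bases inside H3K9me2 regions, peaks with no gene within 5 kb had 55.9%, and the 7 Tiam1 peaks had none. In contrast, Gpc6, the gene with the most broad peaks (26), had 35.8% and Ctnna3 (12) had 72.1%. The broad peak with the highest H3K9me2 density, at Gm23215 (chr16:3238201-3285150, 46950 bp), lay wholly inside and had H3K9me3 at 0.05 over input in WT.

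H3K9me2 itself was tested in the 1488 regions that overlap broad peaks, and 0 passed an adjusted p under 0.05 in either direction (edgeR quasi-likelihood). Over all 47065 regions 1 was lower (0.00212%) and 0 higher, and DESeq2 called 0 of the 1488 as well. With replicate number as a block, edgeR called 3 of the 1488 lower and 0 higher, and 15 lower and 2 higher over all regions. Replicate numbers do not pair these libraries. At an unadjusted p under 0.05, 9 of the 1488 were lower (0.605%, against 1.52% of all regions) and 31 higher (2.08%, against 1.6%). The median region at a broad peak had a density of 1.18 ± 0.01 in WT and 1.20 ± 0.01 in KO (SD, n = 3), close to its inputs at 1.20 and 1.18. The 15 regions at lower broad peaks had a median log2 fold change of 0.01 and the 21 at higher ones -0.04. At an unadjusted p under 0.05 in edgeR, 0 of the 15 were lower and 2 higher, and 2 of the 21 were lower and 0 higher.

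Broad peaks were unevenly placed. Chromosome 7 had 198, followed by chromosomes 1 (152) and 4 (147). Per Mb, chromosome 7 (1.36) was followed by chromosome 15 (1.09, 113 peaks). Chromosome 9 had 28 (0.225 per Mb), X had 4 (0.0234 per Mb) and Y had 3. As a share of the H3K9me3 peaks of a chromosome, broad peaks were 1.70% on 7, 0.344% on 9 and 0.158% on X. Lower calls were 9 of the 198 on chromosome 7 (4.55%) and 3 of the 28 on chromosome 9 (10.7%), against 2.93% of all broad peaks. Chromosomes 3 (6.15%), 11 (5.71%), 17 (4.76%) and 10 (4.59%) also had larger shares than chromosome 7, from few calls each. Higher calls were 12 of 109 on chromosome 10, 11 of 73 on 16 (15.1%) and 10 of 107 on 13 (9.35%), against 2.75% of all broad peaks. These chromosomes hold Grip1, Tiam1 and Arl15. Chromosome 17 had 4 higher calls and no other chromosome had more than 2.

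Many broad peaks came in runs. With gaps of up to 100 kb joined there were 846 groups, of which 604 were single peaks and 20 had 10 or more peaks, and these 20 held 387 peaks. The largest, chr7:35949601-37703250, held 60 broad peaks around Tshz3 and Zfp536, both developmental zinc finger transcription factors. The next 4 were at Fam19a5 on chromosome 15 (41), Tmem132b on chromosome 5 (30), Csmd2 on chromosome 4 (29) and Gpc6, a glypican gene, on chromosome 14 (28). Of the 188 broad peaks in these 5 groups 0 were lower and 1, at Csmd2, was higher. Over all broad peaks 2.93% were lower and 2.75% higher, and peaks of 1 run are not independent, so these are 5 loci.

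Broad peaks overlapped genes more often than all peaks did, which a wider peak does by its width alone. 728 overlapped a gene (44.5%, against 29.1% of all peaks), 807 had none within 5 kb, and 254 contained a transcription start. Exons made up 4.51% of their bases, and 1104 touched no exon. After Gpc6 (1051 kb long), the genes with most broad peaks were Tmem132d (18), Grip1 (14), Ctnna3 (12), Csmd2 (11) and Tenm3 (11). In Gpc6, Tmem132d and Ctnna3 the broad peaks had 0 calls, with log2 fold changes between -0.06 and 0.28. The GC content of the median broad peak was 40.4%, against 39.6% over all peaks, and rose to 43.5% at 20 kb or more, while soft-masked repeats fell from 38.1% to 26.0%.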

How the data were processed

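Per the methods of the study, paired-end ChIP-seq reads were trimmed with Trim Galore 0.4.4, mapped to GRCm38 with Bowtie2 2.3.2, filtered by mapping quality and deduplicated, and MACS peaks were called per mark on pooled ChIP libraries against both inputs. The H3K9me3 values deposited by the authors are log2 reads per peak, transformed to matching distributions in the ChIP libraries, which removes depth and any shift common to all peaks. Deposited input columns are untransformed log2 reads. For H3K9me2 the deposited signal is the mean read count per peak of a region. It was multiplied by the number of peaks to give whole reads. Shorter tables deposited by the authors list the peaks that passed their own comparison, with counts or log2 values and adjusted p-values. The H3K9me2 counts served only to check that reads came out whole.

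H3K9me3 was tested with limma 3.58.1 (trend) on log2 values of all 212313 peaks, and H3K9me2 with edgeR 4.0.16 (quasi-likelihood, TMM) on region sums, both two-sided with Benjamini-Hochberg adjustment over all features. Log2 fold changes are KO over WT from these fits. Reads per H3K9me3 peak were recovered by inverting the matched distributions. The deposited values of broad peaks were returned to within 0.0032 on the log2 scale. In simulated data the reads came back exactly for 53.05% of the values of the 1636 broad peaks and 99.46% of those of all 212313 peaks, and the 99th percentile of the error in broad peaks was 3.49%, so densities of broad peaks are estimates. Recovered reads gave densities, levels over input (1 read added) and DESeq2 1.42.0 fits. Simulated 2-fold changes of 200 features were recovered at 50.0% for H3K9me3 over 212313 peaks and 92.5% for H3K9me2 over 47065 regions.

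The members and gene lists were chosen with earlier results of these data known. Named peaks were, 1 per gene, the 5 widest, 10 lower and 10 higher of smallest p with separate groups, the 5 best enriched, the smallest p per gene list, those next to the width limit, and those at Vil1, marker genes or H3K9me2 extremes. Gene names are those of the deposited table, exons those of GENCODE M21.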

Additional observations from a re-analysis of the deposited data

Results flagged for a closer look

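The H3K9me3 KO input exceeded the WT input at the Vil1 broad peak by a ratio of 11.6, a signal in libraries that no comparison of genotypes tested. There is 1 input per genotype, so this difference has no replicate.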

How the results depend on the processing

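Of the 48 lower and 45 higher broad peaks, leaving out each library in turn gave 35 to 48 lower and 31 to 48 higher. Replicate numbers do not pair the libraries (deviations of same-numbered libraries correlated at -0.20 to 0.06 over broad peaks and at 0.016 to 0.183 in H3K9me2). The replicate block gave 44 and 43, and changed no call of a named peak, but in H3K9me2 it called 3 lower regions at broad peaks in place of 0. Limma without the trend gave 0 lower and 1 higher (27 and 31 at an unadjusted p under 0.05), DESeq2 10 higher, peaks of at least 20 kb 8 and 10, peaks at least 2-fold over WT input 27 and 0, and peaks merged within 1 kb (10670 regions of 10 kb or more, fitted with edgeR on recovered reads in place of limma) 145 and 129. The last 3 change which peaks are counted, and the last also the test. The cause of the differences was not tested otherwise. The median log2 fold change of 0.066 was 0.018 with TMM, 0.034 with library totals, 0.018 with DESeq2, 0.029 at 20 kb or more and 0.053 to 0.076 without single libraries. Peaks of 20 kb or more stood at 0.41 (WT) and 0.26 (KO) over input, and 71.6% overlapped H3K9me2. When at least 50.0% of a peak had to be covered, 50.0% of the broad peaks overlapped. None of the called broad peaks changed sign in another fit. Of 22 named called peaks, 21 lost the call without the trend, 4 with DESeq2 (Arl15 chr13:113867551, Mb21d2, Tiam1 and chr16:90071401), and 1, CT033774.3, without WT replicate 3 and without KO replicate 2. Vil1 was the named peak that kept its call without the trend. The other settings for counts left both counts within 1.5 times. Inputs limit every level over input, since the median broad peak held 245 and 246 input reads and each genotype had 1 input.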
